A study of Mus musculus with 6 samples.

Results

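Immediate early genes are the genes that a cell transcribes within minutes of a stimulus without first making new protein. A list of 10 of them was followed in mouse liver: Fos, Fosl2, Jun, Junb, Jund, Egr1, Atf3, Myc, Ier2 and Klf6. They were found by symbol in the authors' deposited expression table, which lists 8390 genes, and 8 of the 10 were there. Fos and Atf3 are not among the genes listed, so nothing can be said of their level in these livers. All 8 listed members passed the filter on low values, which asked for 1 or more in 3 or more libraries and which 8386 genes passed.

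The samples were 3 LV and 3 untreated liver samples of the inbred mouse strain C57BL/6, called livers from here on. Mice of the LV group were injected in a vein with a lentiviral vector, a gene delivery particle made from a retrovirus and unable to replicate, at 3e8 transducing units, and were sacrificed after 4 h. The untreated mice received nothing, so effects of the vector, the injection and the handling cannot be told apart, and the labels give no age for the mice. RNA came from liver tissue, not from sorted cells, and fewer cells of a type and less RNA per cell cannot be told apart in such RNA.

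Many of these genes encode subunits of AP-1, a dimer of basic leucine zipper proteins in which a Jun protein (Jun, Junb or Jund) pairs with another Jun or with a Fos protein such as Fos or Fosl2. Mitogen and stress kinases act on factors already bound at immediate early promoters, and the transcripts made are usually short-lived. Egr1 is a zinc finger activator restrained by the corepressors Nab1 and Nab2, and Myc is a helix-loop-helix factor that binds DNA with Max. In liver these genes are known for their early rise after partial hepatectomy.

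The deposited values are whole numbers that look like read numbers scaled per library and per transcript length before rounding; no label names their unit. Each library summed to between 497295 and 526009, which are not read totals, so depth is unknown. All 8 hepatocyte markers were listed, and albumin (Alb) had 54529, 54467 and 41700 in LV livers and 66000, 49014 and 69728 in untreated livers. None of 11 neutrophil and 12 lymphocyte markers was listed. LV replicate 3 and untreated replicate 2 stood apart from the other libraries in sex-biased liver genes: Hsd3b5, a male-biased steroid dehydrogenase, had 0, 1 and 103 in LV replicates 1 to 3 and 8, 159 and 4 in untreated replicates 1 to 3. The titles alone identify replicates, and whether these were separate mice is not stated. The p-values reflect only how much these libraries vary, with the variance of each gene moderated by limma towards that of other genes.

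The 8 members did not share a direction. Junb was higher and Egr1 and Ier2 were lower in every LV liver than in any untreated liver, but none of these differences passed the test across all genes. Fosl2 was the only member called, and its difference is a single unit of a rounded scale. Jun, Jund, Klf6 and Myc had overlapping groups. In numbers, 1 of 8 members was higher and 0 were lower at an adjusted p under 0.05 (limma on log2(value + 1), two-sided, Benjamini-Hochberg over all genes), where the same rule called 3.76% of all tested genes higher and 0.870% lower. At an unadjusted p under 0.05 in limma there were 5 members, 3 higher and 2 lower, beside 19.5% of all tested genes. The values of all LV libraries lay above those of all untreated libraries in 2 members and below them in 2, where this held for 8.65% and 11.0% of all tested genes. The median log2 difference of the members was 0.33, and that of all tested genes was -0.07.

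**Figure D1:**
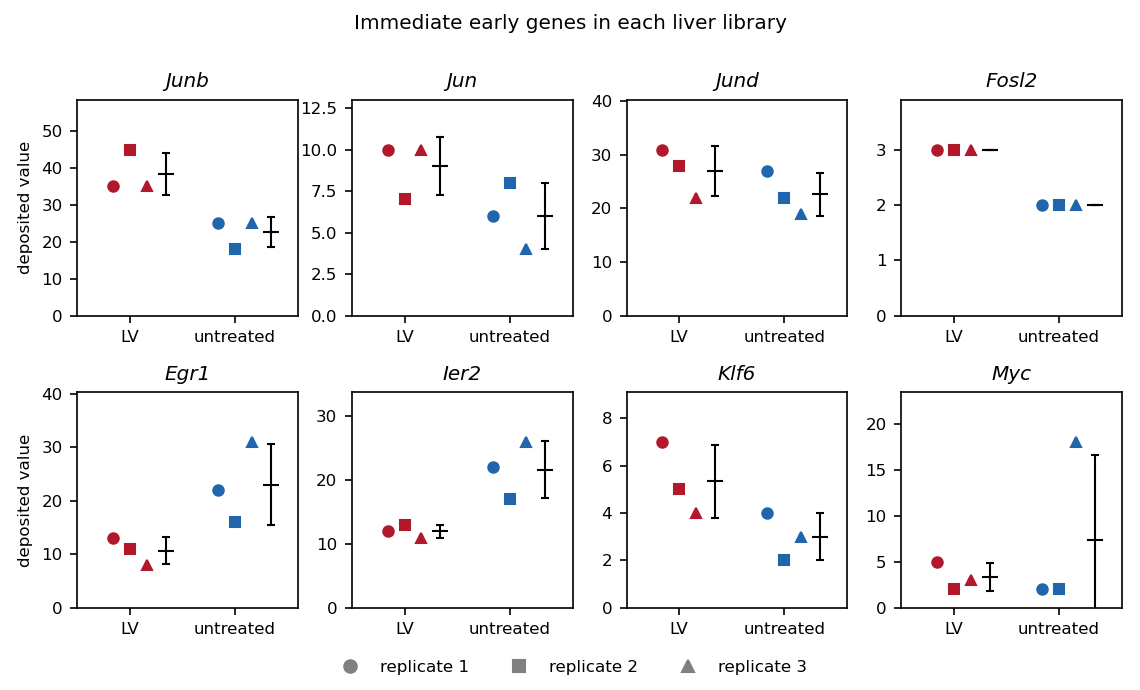
Deposited value (y axis, from 0) of the 8 listed members in the 3 LV libraries (red) and the 3 untreated libraries (blue), with the replicate number given by the symbol and the group mean ± SD in black (n = 3 each; the lower bar of Myc is cut at 0). Junb and Fosl2 lay higher and Egr1 and Ier2 lower in each LV library than in any untreated library, and Myc had 18 in untreated replicate 3 against at most 5 elsewhere.

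The promoters of Junb, Jun and Klf6, the members with the largest positive differences, are printed here to show which regulatory motifs their sequences hold. The windows run from 250 bases before to 50 bases after the transcript start, 5′ to 3′ on the gene's strand, and come from RefSeq on GRCm38.p6, a later build than the mm9 of the submitters' processing notes. Of the 8 listed members, 5 had a window (Fosl2, Jun, Junb, Jund and Klf6). Capitals mark matches on either strand to the cyclic AMP response element core TGACG, the full or variant element TGACNTCA, the AP-1 site TGANTCA, the interferon-activated GAS element TTCNNNGAA, the hexamer TATAAA of TATA boxes, the CCAAT box, the kappaB site and the CArG box of serum response factor. TGACG is also contained in one form of TGACNTCA.
Junb, chr8:84978699-84978998, minus strand: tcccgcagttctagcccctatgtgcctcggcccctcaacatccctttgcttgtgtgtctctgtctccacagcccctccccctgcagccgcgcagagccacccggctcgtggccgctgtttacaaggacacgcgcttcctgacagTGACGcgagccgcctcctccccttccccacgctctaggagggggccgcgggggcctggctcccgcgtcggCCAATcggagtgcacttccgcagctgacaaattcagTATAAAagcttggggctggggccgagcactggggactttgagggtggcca
Jun, chr4:95052173-95052472, minus strand: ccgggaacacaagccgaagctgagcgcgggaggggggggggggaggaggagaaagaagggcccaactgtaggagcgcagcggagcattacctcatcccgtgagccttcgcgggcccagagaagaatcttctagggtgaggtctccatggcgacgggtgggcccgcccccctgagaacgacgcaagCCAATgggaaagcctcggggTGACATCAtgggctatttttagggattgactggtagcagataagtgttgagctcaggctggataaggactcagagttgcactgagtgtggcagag
Klf6, chr13:5861239-5861538, plus strand: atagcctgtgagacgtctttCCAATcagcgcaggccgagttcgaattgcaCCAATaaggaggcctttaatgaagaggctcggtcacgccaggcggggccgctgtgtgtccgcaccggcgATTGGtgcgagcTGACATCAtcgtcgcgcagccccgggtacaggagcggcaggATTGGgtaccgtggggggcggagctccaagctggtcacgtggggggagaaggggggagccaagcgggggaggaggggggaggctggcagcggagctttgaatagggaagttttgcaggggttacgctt

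Junb held the response element core, a CCAAT box and, at the annotated start and not upstream of it, the hexamer of TATA boxes, whereas Jun and Klf6 each held TGACATCA, a variant of the full element, beside CCAAT boxes. Among 32851 promoter windows of the same length, 20.8% held the core, 8.83% the full or variant element, 13.6% that hexamer and 37.4% the CCAAT box. No window of the 5 members held an exact match to the AP-1 letters TGANTCA, the GAS element or a CArG box. Of all windows 7.81%, 8.30% and 1.63% held these. Sites that differ from those letters were not counted as AP-1 sites. The kappaB site was matched in the Fosl2 window only, among the 5, and in 8.46% of all windows. A match is a run of letters and was not tested as a binding site.

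Among the Jun proteins, Junb showed the clearest difference. It had 35, 45 and 35 in LV livers and 25, 18 and 25 in untreated livers. The lowest LV library thus lay above the highest untreated one. The log2 difference was 0.74 ± 0.18 SE (95% interval 0.30 to 1.18, n = 3 each, limma adjusted p = 0.0915), so Junb missed the threshold. JunB is an AP-1 subunit that often opposes c-Jun in growth control.

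Jun, the founding AP-1 subunit, had 10, 7 and 10 in LV livers and 6, 8 and 4 in untreated livers. LV replicate 2 lay below untreated replicate 2, so the groups overlapped (log2 difference 0.54 ± 0.26 SE, 95% interval -0.10 to 1.18, limma adjusted p = 0.309). Jund, a Jun protein that most resting cells make steadily, had 31, 28 and 22 in LV livers and 27, 22 and 19 in untreated livers. Its groups overlapped too, and its difference was the smallest of the 8 in size (0.24 ± 0.18 SE, 95% interval -0.21 to 0.70, limma adjusted p = 0.513).

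The sum of the Jun proteins' transcripts was 76, 80 and 67 in LV livers and 58, 48 and 48 in untreated livers. On these values, which look length-scaled but have no stated unit, the groups did not overlap. Junb made up 46.1%, 56.2% and 52.2% of that sum in LV livers and 43.1%, 37.5% and 52.1% in untreated livers. The share of Junb in untreated replicate 3 lay within the LV range, so the make-up of the Jun group overlapped where its total did not.

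Fosl2, which encodes the Fos-family protein Fra-2, had 3, 3 and 3 in LV livers and 2, 2 and 2 in untreated livers. No library of either group differed from another of its group, so the measured spread is 0. The SE and p-value of Fosl2 thus rest on the variance that limma draws from other genes. The log2 difference was 0.42 ± 0.05 SE (limma adjusted p = 0.00987), the only member past the threshold. If values were rounded to the nearest whole number, an LV value lay anywhere between 2.5 and 3.5 and an untreated value between 1.5 and 2.5 before rounding. These ranges touch, so the size of the rise is not fixed by the table. Of 388 called genes, 32 likewise had no spread in either group. Among the genes without spread, 3, Fosl2 included, had 3 in LV and 2 in untreated libraries, and 9 had the reverse. The call was lost with values scaled to the same total (limma adjusted p = 0.0868), with median-of-ratios scaling (0.0743) and without LV replicate 2 (0.0512). It was also lost with a replicate block (0.105), whose numbers are shared only as labels. The range was 0.00559 to 0.105 over 14 alternatives.

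Egr1, a zinc finger factor induced by growth signals and stress, lay on the other side of 0 from Junb. It had 13, 11 and 8 in LV livers and 22, 16 and 31 in untreated livers. Every LV library lay below every untreated one, and untreated replicate 3 was the highest. The log2 difference was -1.02 ± 0.28 SE (95% interval -1.73 to -0.30, limma adjusted p = 0.133), the largest of the 8 members in size and not past the threshold. Its corepressor genes did not pass either: Nab2 had 9, 10 and 7 in LV livers and 16, 9 and 13 in untreated livers, and Nab1 had 26, 22 and 21 in LV livers and 20, 22 and 19 in untreated livers. Both corepressors had overlapping groups.

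Ier2, a primary response gene for a nuclear protein, resembled Egr1. It had 12, 13 and 11 in LV livers and 22, 17 and 26 in untreated livers. The LV values were close together and all below the untreated ones. The log2 difference was -0.79 ± 0.17 SE (95% interval -1.21 to -0.36, limma adjusted p = 0.0734). The difference passed without untreated replicate 2 (adjusted p = 0.0383), with values scaled to the same total (0.0453) and when only genes averaging 5 or more were tested (0.048), within a range of 0.0383 to 0.225 over 15 alternatives.

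Klf6, a Krüppel-like zinc finger factor, had 7, 5 and 4 in LV livers and 4, 2 and 3 in untreated livers. LV replicate 3 equalled untreated replicate 1, and the difference did not pass (log2 difference 0.67 ± 0.25 SE, 95% interval 0.03 to 1.31, limma adjusted p = 0.242). Myc, the growth factor-induced partner of Max, had 5, 2 and 3 in LV livers and 2, 2 and 18 in untreated livers. A single library, untreated replicate 3, set its mean apart. The log2 difference was -0.42 ± 0.80 SE (95% interval -2.42 to 1.59, limma adjusted p = 0.809) with all libraries and 0.47 (adjusted p = 0.496) without untreated replicate 3.

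**Figure D2:**
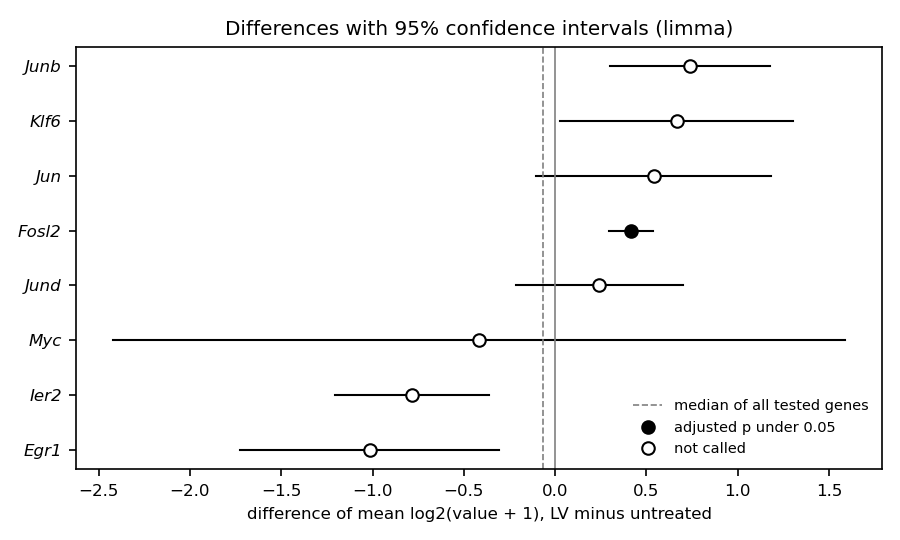
Difference of mean log2(value + 1), LV minus untreated (x axis), of each member with its 95% confidence interval from limma (n = 3 each); filled points passed an adjusted p of 0.05. Junb, Klf6 and Fosl2 have intervals above 0, Egr1 and Ier2 below 0, and the interval of Myc is the widest.

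Untreated replicate 3 held the highest untreated value of Egr1 (31), Ier2 (26) and Myc (18) and shared the highest of Junb (25), whereas it held the lowest of Jun (4) and Jund (19). Untreated replicate 3 also had the highest Per1, a clock gene that hormones and stress induce, with 5, 9 and 2 in LV livers and 4, 9 and 18 in untreated livers. Without that library the difference of Egr1 was -0.79 and that of Ier2 was -0.65. With both libraries high in male-biased genes left out, the differences were -1.07 for Egr1, -0.885 for Ier2, 0.42 for Fosl2 and 0.65 for Junb. These 4 differences kept their direction, and Fosl2 remained the only member past the threshold (adjusted p = 0.00559).

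On the deposited values, whose scaling to transcript length is inferred and not stated, the members' order differed between the groups. In untreated livers Egr1 (16 to 31), Ier2 (17 to 26), Jund (19 to 27) and Junb (18 to 25) lay at a common level with overlapping ranges. In LV livers Junb (35 to 45) lay above Jund (22 to 31), and both lay above Ier2 (11 to 13) and Egr1 (8 to 13), which overlapped. Jun, Klf6, Myc and Fosl2 had lower means over all 6 libraries (7.5, 4.17, 5.33 and 2.5), beside a median of 11.8 over all tested genes. Their ranges were not all apart from those above: in LV livers Jun (7 to 10) overlapped Egr1 (8 to 13), and Myc reached 18 in untreated replicate 3. Klf6 and Myc overlapped in both groups.

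Within each library the ratio of Junb to Ier2 was 2.92, 3.46 and 3.18 in LV livers and 1.14, 1.06 and 0.962 in untreated livers. The ratio of Junb to Egr1 was 2.69, 4.09 and 4.38 in LV livers and 1.14, 1.12 and 0.806 in untreated livers. Neither ratio overlapped between the groups. This separation follows from Junb lying higher and Egr1 and Ier2 lower in every LV library, so it adds no support to those differences. A ratio taken within a library does not depend on how libraries were scaled. The ratio of Egr1 to Ier2 was 1.08, 0.846 and 0.727 in LV livers and 1, 0.941 and 1.19 in untreated livers, with overlap. The pairs were chosen after their values were seen, so they are a description.

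**Figure D3:**
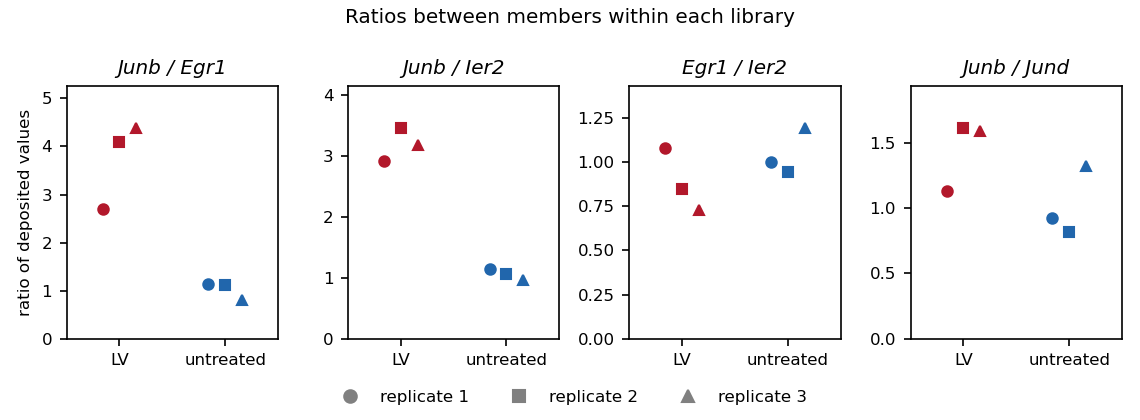
Ratio of deposited values of 2 members within each library (y axis, from 0), for the 3 LV (red) and the 3 untreated (blue) libraries, with the replicate number given by the symbol. The ratios of Junb to Egr1 and to Ier2 are between 2.69 and 4.38 in LV and between 0.806 and 1.14 in untreated libraries. That separation follows from the members' own values. Egr1 to Ier2 and Junb to Jund overlap.

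The members have few exons in GENCODE vM21, but their transcripts are not uniformly short. Junb, Jun, Jund and Ier2 have 1 exon in their longest coding transcript, as have 1.24% of the 7344 listed genes with such a transcript, and the others have between 2 (Egr1) and 4 (Fosl2 and Klf6), beside a median of 10. The longest coding transcripts of Ier2 (1522 bases), Jund (1668), Junb (1809) and Myc (2338) are shorter than the median of 3196 bases over those genes, that of Jun (3189) is near it, and those of Klf6 (4225), Egr1 (4484) and Fosl2 (6537) are longer. The pentamer ATTTA, a core of AU-rich elements that mark short-lived transcripts, occurred 4.52 times per kb in the 3′ UTR of Myc, 4.12 in Junb, 3.24 in Jun, 2.25 in Klf6, 1.88 in Jund, 1.72 in Fosl2 and 1.65 in Egr1, beside a median of 1.36. Ier2 held 0 such pentamers, as did 28.5% of the genes with a 3′ UTR of at least 100 bases. The counting is not stated to use strand, and 173 of 2301 exonic bases of Junb overlap Prdx2 on the opposite strand. Prdx2, a peroxiredoxin, had 85, 77 and 80 in LV livers and 81, 85 and 87 in untreated livers, with no difference past the threshold (log2 difference -0.06 ± 0.07 SE, limma adjusted p = 0.673). Antisense genes that are not listed overlap Jun (Junos) and Jund (Gm11175, over 877 of 1668 exonic bases of Jund), and reads of such pairs cannot be told apart.

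For the 3 members with the smallest p, the genes most alike in pattern were those with the smallest root mean square difference of centred log2 values over the 6 libraries; genes averaging under 5 were not considered. For Ier2 these were Cyp2c37 (0.083), Gstt2 (0.087) and Slc9a3r2 (0.092). For Junb they were Heg1 (0.081), Jak3 (0.094) and Pkm2 (0.097). Jak3, a kinase of cytokine receptors, had 9, 10 and 8 in LV livers and 6, 4 and 5 in untreated livers. Fosl2 was matched exactly by Rbm9, with 7 in each LV and 5 in each untreated liver, and Myo18a was also close to it (0.064); 36 genes lay within 0.1 of it.

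Other proteins that pair with AP-1 or belong to the same zipper class were mixed. Of 22 listed partners 15 were in the table and 0 passed in limma in either direction (at an unadjusted p under 0.05, 3 were higher and 3 lower). Over all tested genes, 3.76% were called higher and 0.870% lower, and 19.5% had an unadjusted p under 0.05. Among the partners, the values of all LV libraries lay above all untreated ones in 3 and below them in 4. This held for 8.65% and 11.0% of all tested genes. The median log2 difference was -0.06. Maff, a small Maf protein, had 3, 3 and 3 in LV livers and 5, 7 and 9 in untreated livers (log2 difference -0.97 ± 0.19 SE, limma adjusted p = 0.0585). Mafk, a small Maf of the same kind, had 21, 24 and 23 in LV livers and 13, 13 and 7 in untreated livers (1.02 ± 0.24, limma adjusted p = 0.0923). These close relatives thus lay on opposite sides of 0.

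Further primary response transcription factors gave 0 calls in limma among 11 of 21 that were in the table (0 also at an unadjusted p under 0.05), 8 of them with a negative difference (median -0.33). Over all tested genes, 58.1% of differences were negative and 19.5% had an unadjusted p under 0.05. Calls were made for 3.76% higher and 0.870% lower. Klf10, a factor induced by TGF-beta, had 5, 18 and 12 in LV livers and 17, 39 and 21 in untreated livers (log2 difference -1.14 ± 0.52 SE, limma adjusted p = 0.297). Its groups overlapped. Egr2, Egr3, Egr4, Nr4a1, Nr4a2, Nr4a3 and Klf4 were not among the genes listed.

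Some primary response genes for other kinds of protein were called. Of 28 in the table of 38, 3 rose, 0 fell and 25 did not pass (median 0.13), where 3.76% of all tested genes were called higher and 0.870% lower. Tnfaip3, which encodes the NF-kB inhibitor A20, rose to 7, 5 and 5 in LV livers, against 1, 1 and 1 in untreated livers (log2 difference 1.72 ± 0.13 SE, limma adjusted p = 0.0023). Its untreated values had no spread on this whole-number scale, which limits what its SE measures. Pim1, a kinase gene induced by STAT factors, rose to 46, 50 and 40 in LV livers, against 19, 13 and 11 in untreated livers (1.62 ± 0.21, limma adjusted p = 0.0161). Nfkbiz, an atypical NF-kB regulator, rose to 9, 8 and 10 in LV livers, against 4, 2 and 3 in untreated livers (1.35 ± 0.21, limma adjusted p = 0.0284). These fold changes exceed those of all 8 members in size. Tnfaip3 passed without any 1 library, with an adjusted p of at most 0.0268, whereas Pim1 reached 0.0985 without LV replicate 2 and Nfkbiz 0.121 without LV replicate 1. Among the other libraries, Pim1 also lost its call when LV replicate 1 (0.0863) or untreated replicate 2 (0.0734) or 3 (0.0601) was dropped, and Nfkbiz when LV replicate 2 (0.109) or 3 (0.0763) or untreated replicate 3 (0.117) was dropped. Tob1, an antiproliferative gene, had 22, 35 and 18 in LV livers and 57, 53 and 51 in untreated livers (limma adjusted p = 0.0749).

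**Figure D4:**
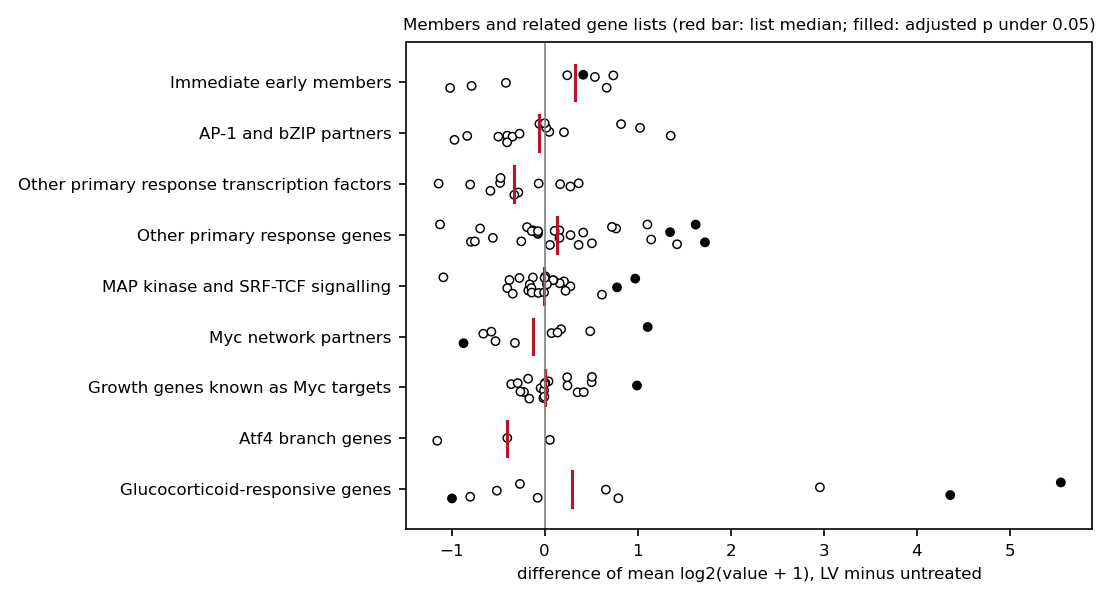
Difference of mean log2(value + 1), LV minus untreated (x axis), of the 8 members and of the genes of each related list (rows), with filled points past an adjusted p of 0.05 in limma and the list median as a red bar; points are spread vertically for visibility. The members lie between -1.02 and 0.74, and Tnfaip3, Pim1 and Nfkbiz are the filled points among other primary response genes.

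Upstream of the members, 24 of 29 genes of MAP kinase and serum response factor signalling were in the table. Of these, 2 rose, 0 fell and 22 did not pass (median -0.00297), beside 3.76% of all tested genes called higher and 0.870% lower. Map2k1, the kinase MEK1 that activates ERK, rose to 54, 46 and 39 in LV livers, against 22, 26 and 21 in untreated livers (log2 difference 0.97 ± 0.15 SE, limma adjusted p = 0.0291). Mkl1, an actin-regulated coactivator of serum response factor, rose to 8, 7 and 6 in LV livers, against 4, 4 and 3 in untreated livers (0.78 ± 0.14, limma adjusted p = 0.047). The call of Map2k1 held only without LV replicate 3 (0.0324) among single libraries left out, with adjusted p between 0.0579 and 0.132 for the others, and that of Mkl1 was lost without any 1 library (0.055 to 0.178).

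Around Myc, 10 of 15 network genes were in the table, and 1 rose, 1 fell and 8 did not pass. Over all tested genes 3.76% were called higher and 0.870% lower. Mxd1, which competes with Myc for Max, rose to 4, 3 and 3 in LV livers, against 1, 1 and 1 in untreated livers (log2 difference 1.11 ± 0.10 SE, limma adjusted p = 0.00482), and passed without any 1 library (at most 0.0364). The untreated values of Mxd1 had no spread on this whole-number scale, which limits what its SE measures. Mycl1, a Myc paralog, fell to 2, 3 and 3 in LV livers, against 6, 5 and 6 in untreated livers (-0.87 ± 0.15, limma adjusted p = 0.0375). Its call was lost without any 1 library (0.0583 to 0.141). All 20 listed growth genes known as Myc targets were in the table, of which 1 rose, 0 fell and 19 did not pass (median -0.00127). The gene that rose was Ccnd2, a D-type cyclin, with 7, 8 and 6 in LV livers and 3, 3 and 3 in untreated livers (0.99 ± 0.11, limma adjusted p = 0.00899). Ccnd2 reached 0.0531 when LV replicate 1 was dropped, and 0.0526 and 0.0513 when untreated replicate 1 or 3 was. The untreated values of Ccnd2 also had no spread. Whether Myc acted on Ccnd2 or on the other listed targets was not tested.

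Stress branches linked to immediate early genes were small or mixed. Of 12 genes of the Atf4 branch, 3 were in the table and 0 passed in limma (at an unadjusted p under 0.05, 2 were lower). Trib3, a pseudokinase of that branch, had 3, 6 and 7 in LV livers and 12, 9 and 18 in untreated livers (limma adjusted p = 0.161), and Ddit3 had 10, 9 and 7 in LV livers and 11, 12 and 12 in untreated livers (0.199). Of the 10 glucocorticoid-responsive genes, all in the table, 2 rose, 1 fell and 7 did not pass. The shares over all tested genes were 3.76% called higher and 0.870% called lower, with 19.5% at an unadjusted p under 0.05 in limma. Tsc22d3, the glucocorticoid-induced leucine zipper, fell to 25, 28 and 19 in LV livers, against 46, 47 and 52 in untreated livers (log2 difference -0.996 ± 0.16 SE, limma adjusted p = 0.0303). Its call held only without LV replicate 3 (0.0268) among single libraries left out, with 0.0611 to 0.123 for the others. The genes that rose were Mt2, a metallothionein (4.36 ± 0.72, limma adjusted p = 0.0362), and Lcn2, a lipocalin (5.55 ± 0.99, limma adjusted p = 0.0441), which are also acute-phase genes. The calls of Mt2 and Lcn2 held only without LV replicate 3 (0.0453 and 0.0337) among single libraries left out, with up to 0.159 and 0.178 for the others.

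Of the markers of other liver cell types, 1 gene passed the test. Over all tested genes, 3.76% were called higher and 0.870% lower. An unadjusted p under 0.05 was reached by 19.5% of them in limma, and 58.1% had a negative difference. The 12 listed Kupffer cell and macrophage markers summed to 222 to 420 in LV libraries and 304 to 439 in untreated libraries, with 9 negative differences and 0 calls in limma (median -0.57; 1 higher and 2 lower at an unadjusted p under 0.05). The 10 sinusoidal endothelial markers summed to 110 to 194 in LV libraries and 197 to 221 in untreated libraries, with 7 negative differences and 0 calls (median -0.36; 1 higher at an unadjusted p under 0.05). These endothelial sums did not overlap between the groups, though the highest LV sum lay close to the lowest untreated one. Of 6 monocyte markers 2 were listed and 1 rose, Plac8 (log2 difference 1.94 ± 0.30 SE, limma adjusted p = 0.0287). The 10 stellate cell and fibroblast markers summed to 100 to 160 in LV libraries and 110 to 154 in untreated libraries, with 0 calls (1 higher and 2 lower at an unadjusted p under 0.05). Of 5 erythroid markers 2 were listed, summing to 43 to 130 in LV libraries and 86 to 147 in untreated libraries, and of 5 cholangiocyte markers 1 was listed, at 20 to 31 in LV libraries and 18 to 35 in untreated libraries. The sums were 90 to 1527 in LV and 303 to 1682 in untreated libraries for 7 male-biased genes, and 106 to 487 in LV and 181 to 1108 in untreated libraries for 6 female-biased genes. None of these lists but the male-biased one held a gene at 0 in a library. The part of these cell types in the differences of Egr1, Ier2 and Junb was not tested.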

How the data were processed

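RNA of 6 liver samples was sequenced from Illumina TruSeq RNA libraries, per the labels' protocols. The submitters' processing notes name genome build mm9 and nothing seen here states the aligner, annotation or counting. The values deposited by the authors have no stated unit and were treated as a score: whole numbers with nearly equal sums whose lowest level falls with transcript length (its first percentile was 6.56 among the shortest 10% of transcripts and 1 among the longest 10%). Depth is therefore unknown.

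Values were taken as deposited, limma 3.58.1 (R 4.3.3) was run on log2(value + 1) with group as the only term and an intensity trend, and two-sided p-values were adjusted by Benjamini-Hochberg across 8386 genes. The fit was tested on simulated data in which the smallest spreads were raised to a floor before rounding. The outcome is not given here, and that test does not bear on calls without spread such as that of Fosl2. Differences are LV minus untreated and understate the change of low genes. Members, lists, rules and alternatives were chosen with earlier results of these data known. Of 263 list entries 174 were found by symbol and 5 by an older one. Named genes were all listed members, called list genes (up to 6 a list) or otherwise the 2 with the smallest p, and the 3 genes most alike to each of 3 members; some genes of the rule are not reported here, and Nab1, Per1, Tob1, Prdx2 and Hsd3b5 were added after their values were seen. Alternatives were another pseudocount, other filters and scalings, no intensity trend, a replicate block and libraries left out.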

Additional observations from a re-analysis of the deposited data

How the results depend on the processing

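Over 15 alternatives, Jun, Junb, Jund, Egr1 and Klf6 (14 for Klf6) kept their direction and passed the threshold in none. Fosl2 kept its direction in 14 and lost its call with median-of-ratios scaling (log2 difference 0.45), values scaled to the same total (0.43), a replicate block (0.42, adjusted p = 0.105) and without LV replicate 2. Ier2 passed with values scaled to the same total (-0.77) and with a mean of at least 5 (-0.79), which leaves fewer genes tested and drops Fosl2 and Klf6. The members called higher were thus 0 under those 4 settings and with a mean of at least 5, and the members called lower were 1 with the same total or a mean of at least 5. With single libraries left out, the members called ranged from 0 to 1 in each direction, Fosl2 stayed at 0.42, Ier2 ranged from -0.94 to -0.65 and Myc from -0.86 to 0.47, turning positive without untreated replicate 3; the cause was not tested. Over all genes, 315 higher and 73 lower calls became 119 to 313 and 10 to 116 with single libraries left out, and 145 and 11 with the replicate block, whose numbers are shared only as labels (same-numbered samples had correlations of 0.278, -0.47 and -0.337); no member was called with the block. Lower calls were 136 without both LV replicate 3 and untreated replicate 2. Median-of-ratios scaling moved the median of all genes to -0.02. Depth is unknown, and rounding limits the size given for Fosl2.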
